A study of Homo sapiens with 24 samples.

Results

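PC9 is an established human lung adenocarcinoma line that carries an activating EGFR mutation, and 2 populations of it were compared, labelled control (CTRL) and YAP1 knockout (YAP1 KO). The comparison described is YAP1 KO against CTRL in cells that had all received OT, osimertinib (an EGFR inhibitor, 100 nM) combined with trametinib (a MEK inhibitor, 30 nM), for 24 hours. It rests on 6 mRNA sequencing libraries, 3 per genotype, of 24 in the series, and takes every gene that reached an FPKM of 1 in 3 or more of these libraries, which held for 12182 of 25365 gene rows. FPKM, the authors' level per gene, counts fragments relative to transcript length and to the number mapped. Each library came from its own 10 cm dish of the same CTRL or YAP1 KO cells, grown in RPMI-1640 with serum, so the p-values measure the spread between dishes. The labels do not say how YAP1 was disrupted, what the CTRL cells carry, or whether the YAP1 KO cells are a clone or a pool. The same pair of genotypes in DMSO, the solvent, and the line HCC4006 under the same OT treatment are used only for comparison.

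YAP1 is a transcriptional coactivator, and the Hippo pathway restrains it. The kinases STK3 and STK4 activate LATS1 and LATS2, which phosphorylate YAP1 and its paralogue TAZ (WWTR1) and keep them out of the nucleus. In the nucleus both bind TEAD factors and activate genes such as CTGF, CYR61 and ANKRD1. In EGFR-mutant lung cancer, osimertinib blocks the receptor and trametinib blocks MEK below it. Loss of that signal stops the cell cycle and raises BH3-only proteins such as BIM, which oppose the survival proteins BCL-XL and MCL1. The study's title names tumor dormancy under treatment and a YAP-mediated change in transcription of apoptotic genes.

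FPKM of the 6 OT libraries summed to 583614 to 593526 in CTRL and 566982 to 576571 in YAP1 KO. Their absolute depth is unknown, but the step that 1 read adds to a low gene puts them at 0.951 to 1.12 times the depth of the first CTRL OT library. Across genes, libraries of a genotype correlated at r of 0.988 to 0.994 and libraries of different genotypes at 0.975 to 0.978. In the 12 PC9 libraries, treatment lay along the first principal component (69.1% of variance) and genotype along the second (13.5%). Genotypes also stood apart on the first, at 27.5 to 29.0 in CTRL OT and 41.0 to 42.5 in YAP1 KO OT. In DMSO they stood at -34.0 to -32.1 in CTRL and -37.1 to -36.3 in YAP1 KO. Replicate 2 of YAP1 KO OT stood apart on the third component. Of 12 markers of lung adenocarcinoma epithelium, 10 reached FPKM of 1 and summed to 9993 to 10300.3 in CTRL and 8595 to 8851 in YAP1 KO, while the lung lineage markers NKX2-1 and NAPSA did not reach it. Fibroblast markers, of which 1 of 10 reached it, summed to 1.90 to 2.34 in CTRL and 2.37 to 2.75 in YAP1 KO, with DCN, PDGFRA and COL3A1 at 0 in both groups. Immune markers (1 of 10 in CTRL and 2 of 10 in YAP1 KO reached it in a library) summed to 29.8 to 32.5 and 37.6 to 40.1, nearly all of it CD68. The second was CSF1R, named after its values were seen, at 0.258 to 0.289 in CTRL and 0.895 to 1.05 in YAP1 KO, with CD3D, MS4A1 and NKG7 at 0. Endothelial markers (2 of 8) summed to 58.7 to 60.4 and 68.7 to 73.5, nearly all of it EGFL7 and ESAM, with CLDN5 at 0. A marker listed at 0 cannot be read as absent, because genes that every cell uses, such as TUBB and RPS18, are listed at 0 as well.

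Under OT, 3578 genes (29.4% of those tested) were higher in YAP1 KO cells and 3165 (26%) were lower, at a Benjamini-Hochberg adjusted p under 0.05 from limma on log2(FPKM + 1). Differences were small for most genes: the middle of the distribution lay at 0.02 on the log2 scale, and 90% of it between -0.55 and 0.49. At least 2-fold, 81 genes (0.665%) were higher and 123 (1.01%) were lower. The FPKM of the genotypes did not overlap in 3942 higher (32.4%) and 3369 lower (27.7%) genes. A list of genes is therefore read below against a background in which more than 1 gene in 4 was called in each direction. The filter was passed by both genotypes for 11436 genes and through 1 genotype alone for 235, of which 223 were called. Scaling by the median of gene ratios gave 2804 higher and 3801 lower (42.5% of calls higher, against 53.1%), and scaling to equal sums gave 4325 and 2708 (61.5%). A pseudocount of 0.1 in place of 1 gave 203 genes at least 2-fold higher and 207 lower.

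YAP1 itself had 33.8, 34.2 and 34.5 FPKM in CTRL OT and 11.6, 10.1 and 11.3 in YAP1 KO OT. The groups did not overlap, and the YAP1 KO mean was 32.2% of CTRL, a log2 difference of -1.55 (SE 0.046, adjusted p = 9.46e-11). This level sums over the whole gene and does not show how much protein was made. WWTR1, which encodes TAZ, had 16.9 ± 0.541 FPKM (SD, n = 3) in CTRL and 16.6 ± 1.03 in YAP1 KO and was not called (-0.03, adjusted p = 0.639). Among the DNA-binding partners, TEAD4 was lower (19.0 to 11.9 FPKM, -0.63) and so was TEAD1 (-0.24), while TEAD2 was higher (21.7 to 37.6 FPKM, 0.77). TEAD3 was not called (0.05). VGLL1, a TEAD cofactor, was lower (139 to 92.5 FPKM, -0.58).

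Of the 25 Hippo kinases and upstream regulators listed, 24 passed the filter, and 11 were lower, 5 higher and 8 not called. The upstream regulator WWC1 fell most, from 32.0 to 14.5 FPKM (-1.08), and WWC2 was lower too (-0.85). The kinases themselves split: STK3 (-0.63) and LATS2 (-0.58) were lower, STK4 (0.06) and LATS1 (0.15) were not called. All 3 angiomotins, which bind YAP1 at junctions, were lower, AMOT (-0.65), AMOTL2 (-0.60) and AMOTL1 (-0.24). The 5 higher members changed little, with TAOK1 (0.37) and LIMD1 (0.33) at the top, and they numbered 3 under median-of-ratios scaling and without replicate 1 of either genotype.

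Canonical YAP/TEAD targets were lower in YAP1 KO cells under OT. Of 22 listed, 20 passed the filter, 1 of them through CTRL alone, and 17 were lower, 0 higher and 3 not called, with a median of -0.40 against 0.02 over all genes. CYR61, a secreted matricellular protein, had 96.9, 91.5 and 80.4 FPKM in CTRL OT and 37.7, 40.0 and 36.1 in YAP1 KO OT. Every CTRL library was more than 2-fold above every YAP1 KO library (-1.22, SE 0.059, adjusted p = 5.18e-09). CTGF, of the same family, had 20.5, 20.1 and 15.6 FPKM against 8.26, 8.595 and 8.08 (-1.08, SE 0.089, adjusted p = 5.13e-07). The third CTRL library was the lowest of its group for both genes and still lay above all YAP1 KO libraries. FJX1, a secreted protein of the four-jointed family, had 4.38, 4.24 and 4.66 FPKM against 1.38, 1.08 and 1.41 (-1.24). NUAK2, a kinase related to AMPK, had 2.97, 2.39 and 2.34 against 0.883, 0.645 and 0.795 (-1.01), and passed the filter through CTRL alone. Other members were lower by less, such as the ligand TGFB2 (-0.93), the growth factor binding protein IGFBP3 (-0.64), the receptor kinase AXL (-0.35) and the membrane protein CRIM1 (-0.15). ASAP1 (-0.09), MYOF (-0.03) and RBMS3 (0.02) were not called, and ANKRD1 and FOXF2 did not pass the filter.

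In DMSO, 7 of the same targets were lower, 7 higher and 6 not called, with a median of -0.04. Of all genes tested, 20.6% were lower and 19.7% higher in DMSO, the background for the DMSO list counts below. CYR61 was higher in YAP1 KO cells in DMSO, at 73.9 ± 2.22 FPKM against 56.5 ± 1.81 in CTRL (0.38, adjusted p = 2.21e-04), and CTGF likewise at 11.9 ± 1.17 against 8.88 ± 0.424 (0.38, adjusted p = 0.00419). The interaction, which is the YAP1 KO difference under OT minus that under DMSO, was -1.60 for CYR61 (SE 0.083, adjusted p = 9.29e-08) and -1.46 for CTGF (SE 0.126, adjusted p = 4.33e-06). Over the list it was called below 0 for 12 members and above 0 for 1, CCDC80, an extracellular protein (0.54), with 7 not called. Over all genes tested it was called below 0 for 13.8% and above 0 for 13.7%, the background for interaction counts below. In CTRL cells the mean levels of CYR61 and CTGF stood higher under OT than under DMSO and in YAP1 KO cells lower, as the plot of levels by library shows. FJX1 instead stood at 15.6 ± 0.399 and 14.9 ± 0.723 FPKM in the DMSO groups, above both OT groups.

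**Figure D1:**
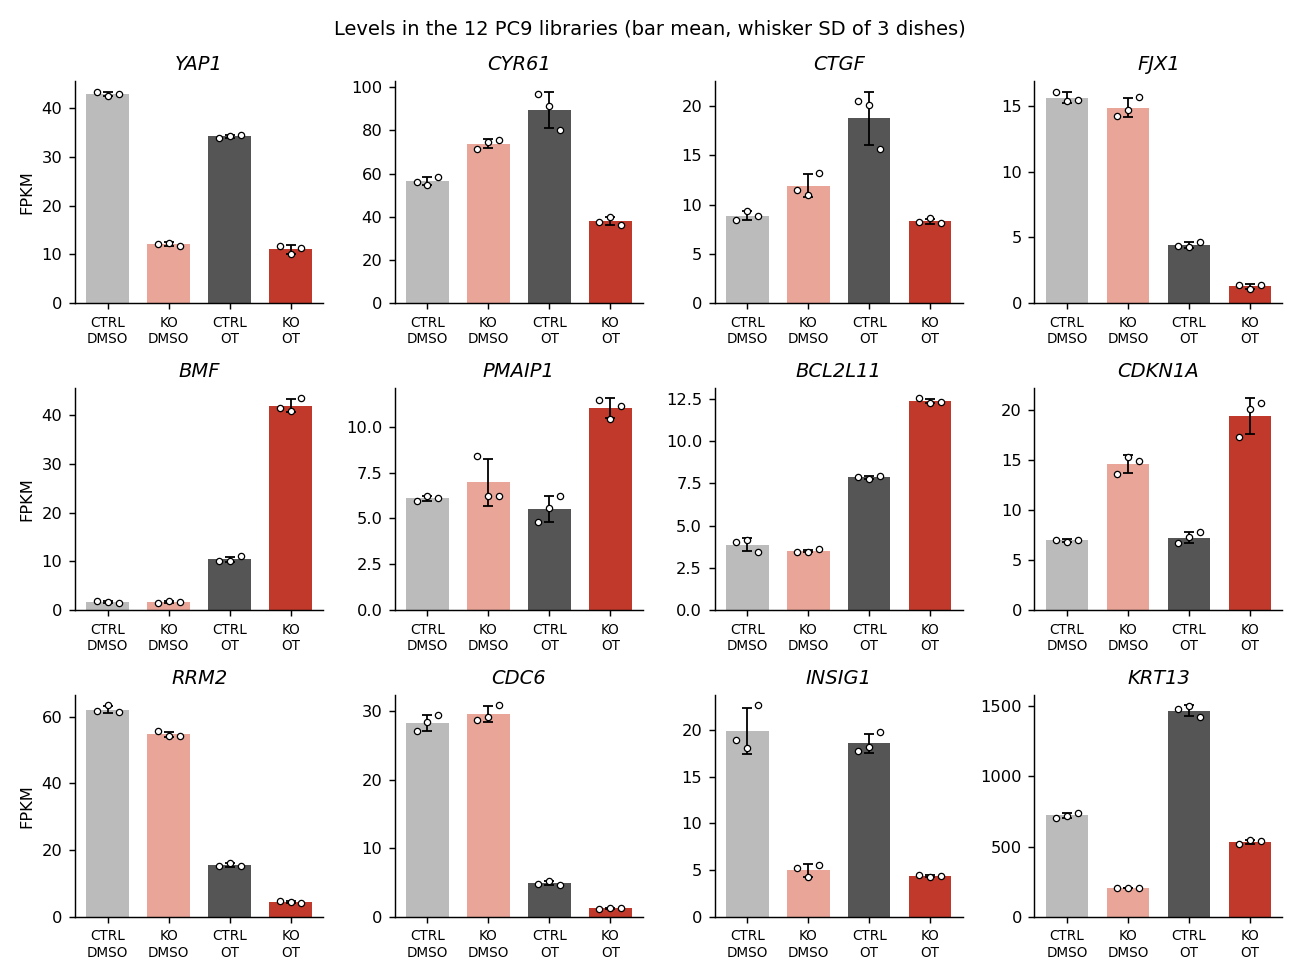
FPKM of 12 genes in the 12 PC9 libraries, with 1 panel per gene and groups of CTRL and YAP1 KO (KO) cells under DMSO and OT on the horizontal axis. Bars are means, whiskers are SD of 3 dishes and points are libraries; BMF reached 40.9 to 43.4 FPKM in YAP1 KO OT, while CYR61 and CTGF had their lowest means there.

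TEAD factors bind the sequence GGAATG (also read as CATTCC on the other strand), and the 250 bases before the transcription start of CTGF and NUAK2 are shown because these were the list members with the largest falls among those whose window held it. CYR61, which fell further than both, had no promoter window and was not searched. Capitals mark the matches. They were read from RefSeq promoter windows on GRCh38.p14, a build other than that of the expression table: CTGF (RefSeq CCN2) lies at chr6:131951373-131951622 on the minus strand, with 3 matches that begin 169, 104 and 95 bases before the start. NUAK2 lies at chr1:205321746-205321995 on the minus strand, with 2 matches that begin 197 and 18 bases before it.
CTGF: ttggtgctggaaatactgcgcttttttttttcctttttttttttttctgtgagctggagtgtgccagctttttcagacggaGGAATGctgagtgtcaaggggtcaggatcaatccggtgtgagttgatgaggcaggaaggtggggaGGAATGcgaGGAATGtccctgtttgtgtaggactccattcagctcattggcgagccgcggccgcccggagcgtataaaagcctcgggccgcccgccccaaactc
NUAK2: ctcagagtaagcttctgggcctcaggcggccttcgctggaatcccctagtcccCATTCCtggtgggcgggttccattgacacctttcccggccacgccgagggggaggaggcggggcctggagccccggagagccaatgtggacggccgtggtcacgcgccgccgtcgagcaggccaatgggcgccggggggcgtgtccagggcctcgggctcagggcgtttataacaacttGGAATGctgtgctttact
Of 16 YAP/TEAD list members with a window of 300 bases (250 before to 50 after the start), 7 held GGAATG (43.8%), against 14.0% of all 27305 windows. A match describes the letters and not binding.

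Of 10 tested pro-apoptotic genes of the BCL2 family, 6 were higher, 2 lower and 2 not called, with a median of 0.30 against 0.02 over all genes. BMF, a BH3-only protein, showed the largest change: 10.1, 10.0 and 10.98 FPKM in CTRL OT against 41.4, 40.9 and 43.4 in YAP1 KO OT. The mean rose 4.05-fold (1.92, SE 0.068, adjusted p = 3.89e-10), with little spread in either group. In DMSO, BMF was at 1.67 ± 0.159 and 1.58 ± 0.236 FPKM and was not called (-0.05, adjusted p = 0.583). The interaction of 1.97 (SE 0.097) was the largest positive one among genes with a mean of at least 5 FPKM in an OT group, and it passed a test against a difference of 1 (adjusted p = 0.00156).

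PMAIP1 (NOXA), which opposes MCL1, had 4.78, 5.55 and 6.23 FPKM against 11.5, 10.5 and 11.1 (0.89, SE 0.099, adjusted p = 8.04e-06). BCL2L11 (BIM), which binds all survival proteins, had 7.88, 7.76 and 7.96 FPKM against 12.5, 12.3 and 12.3 (0.59, SE 0.054, adjusted p = 1.29e-06). BBC3 (PUMA), a p53 target, had 8.05, 8.20 and 7.78 FPKM against 10.6, 12.7 and 12.6 (0.52, SE 0.094, adjusted p = 4.64e-04). None of these 3 was called in DMSO, and the interaction was called for each, at 0.73, 0.71 and 0.48. The effector BAX was higher (0.33) and BAK1 was not called (-0.03). BAD (-0.47) and BID (-0.41), which are BH3-only proteins too, were lower.

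On the survival side, BCL2L1 (BCL-XL) was lower, at 30.8, 28.0 and 29.9 FPKM in CTRL OT and 19.9, 21.1 and 21.3 in YAP1 KO OT (-0.49, SE 0.039, adjusted p = 4.10e-07). In DMSO it was slightly higher in YAP1 KO cells (0.13), and the interaction was -0.62. MCL1 stood at 44.0 ± 0.776 and 41.9 ± 1.05 FPKM and was not called (-0.07, adjusted p = 0.0877), although its libraries did not overlap. Under median-of-ratios scaling MCL1 was called lower (-0.12). BCL2, BCL2A1 and BCL2L10 did not pass the filter.

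Of 27 tested death receptors, caspases and inhibitors, 8 were higher, 10 lower and 9 not called, while 29.4% of all genes were higher and 26% lower. The higher count of the list was 5 under median-of-ratios scaling and without replicate 3 of YAP1 KO OT. DAPK2, a calmodulin-dependent death-associated kinase, rose from 3.34 ± 0.128 to 9.50 ± 0.578 FPKM (1.27), with an interaction of 1.46. TNFSF10, the ligand TRAIL, rose from 23.5 ± 1.03 to 34.5 ± 0.594 FPKM (0.53), and in DMSO was lower in YAP1 KO cells (-0.39). Its receptor TNFRSF10B was not called (-0.06), and FAS was lower (-0.30). CFLAR, which inhibits caspase-8, was lower (-0.32).

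Genes of DNA replication were lower in nearly every case. Of 36 tested S-phase genes, 34 were lower, 1 higher and 1 not called, with a median of -0.65, and 10 were at least 2-fold lower. The filter was passed through 1 genotype alone by 3 of the 36. RRM2, the small subunit of ribonucleotide reductase, had 15.1, 16.3 and 15.1 FPKM in CTRL OT and 4.77, 4.32 and 4.13 in YAP1 KO OT (-1.61, SE 0.045, adjusted p = 5.88e-11). CDC6, which loads the replicative helicase at origins, had 4.82, 5.22 and 4.60 FPKM against 1.19, 1.25 and 1.31 (-1.39, SE 0.050). TYMS, thymidylate synthase, had 49.0, 49.0 and 46.7 FPKM against 17.4, 17.9 and 18.7 (-1.37). The groups lay 2.68-fold to 3.91-fold apart in these 3 genes and did not overlap. GINS2, a helicase subunit, was lower too (-1.37), as were the transcription factor E2F1 (-1.28), the sliding clamp PCNA (-0.88) and all of MCM2, MCM3, MCM5, MCM6 and MCM7 (-1.09 to -0.51). The 1 higher member was GINS3 (0.18), whose call was lost without replicate 2 of CTRL OT, without replicate 3 of YAP1 KO OT and under median-of-ratios scaling. CCNE1 was not called (-0.15).

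These replication genes were far above their OT levels in both DMSO groups, and the genotypes differed little there: RRM2 had 62.1 ± 1.14 and 54.7 ± 0.840 FPKM and CDC6 28.3 ± 1.19 and 29.6 ± 1.13. In DMSO, 13 members were higher, 8 lower and 15 not called in YAP1 KO cells, with a median of 0.05. The interaction was called below 0 for 35 of 36 members and above 0 for 0. It passed the test against a difference of 1 for RRM2 (-1.43, adjusted p = 0.0202) and CDC6 (-1.45, adjusted p = 0.0258). Libraries sum over all cells, so a smaller share of cells in S phase and less RNA per cell cannot be told apart here.

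Mitotic genes fell by less. Of 38 tested, 35 were lower, 0 higher and 3 not called, with a median of -0.39 and none at 2-fold. ANLN, the cytokinesis scaffold, fell most, from 46.4 ± 1.82 to 24.1 ± 1.44 FPKM (-0.92). CDK1 went from 51.4 ± 2.04 to 32.6 ± 1.83 FPKM (-0.64) and the proliferation marker MKI67 from 6.71, 6.01 and 5.85 to 4.98, 4.94 and 5.09 (-0.26). In DMSO, 20 of these genes were already lower and 1 was higher, and the interaction was called below 0 for 29 and not called for 9. Of promoter windows, the letters TTTGAA of the cell cycle homology region (either strand) were in 22 of 31 mitotic list members against 15.4% of all windows, and the E2F letters TTTNNCGC in 19 of 33 S-phase members against 6.90%.

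Cell cycle inhibitors and quiescence genes moved in both directions, with 13 of 27 higher and 5 lower. CDKN1A, the inhibitor p21, had 6.64, 7.27 and 7.80 FPKM in CTRL OT and 17.3, 20.04 and 20.7 in YAP1 KO OT (1.30, SE 0.069, adjusted p = 1.04e-08). It was also higher in DMSO, at 14.6 ± 0.886 against 6.95 ± 0.113 FPKM (0.97), with an interaction of 0.33. CDKN1B (p27) was higher under OT, at 55.8 ± 1.78 against 40.2 ± 0.919 FPKM (0.46), slightly lower in DMSO (-0.09), and had an interaction of 0.55. KLF9 (0.93) and BTG2 (0.56), both antiproliferative regulators, were higher, while BTG3, of the same family as BTG2, was lower (-0.72). The INK4 inhibitors CDKN2C (-0.49) and CDKN2D (-0.59) were lower too. CCND1, cyclin D1, had 35.2, 31.5 and 32.9 FPKM against 17.97, 15.8 and 15.7 (-0.97, SE 0.054), with no call in DMSO (0.02) and an interaction of -0.99. Of 22 tested p53 targets, 11 were higher and 3 lower; beside CDKN1A and BBC3, TP53INP1 rose from 2.65 ± 0.101 to 5.50 ± 0.168 FPKM (0.83), and MDM2 was not called (-0.06).

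**Figure D2:**
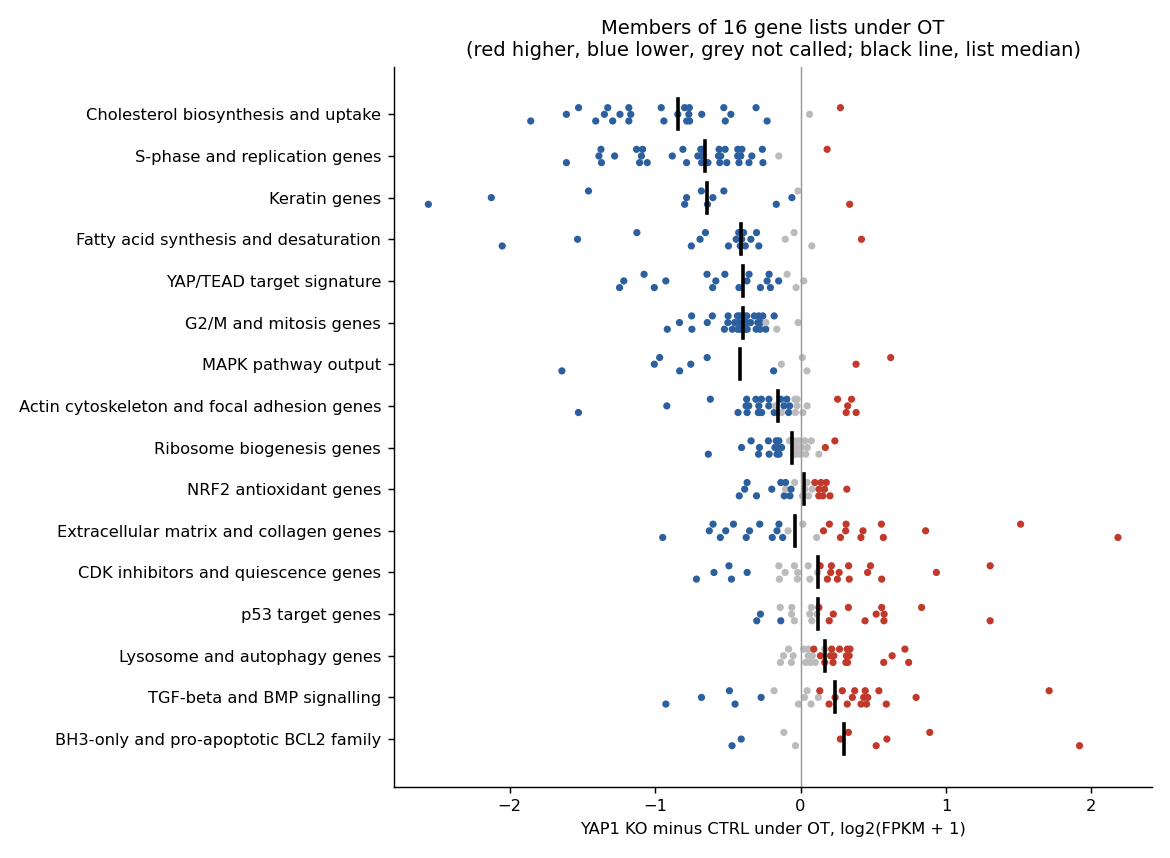
Difference between YAP1 KO and CTRL under OT on the log2(FPKM + 1) scale (horizontal axis) for each tested member of 16 gene lists (rows). Red points were called higher, blue lower and grey neither, and black lines are list medians, which run from -0.84 for cholesterol genes to 0.30 for pro-apoptotic BCL2 genes.

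Cholesterol synthesis and uptake was the list with the lowest median, -0.84. Of 27 tested members, 25 were lower, 1 higher and 1 not called, and 11 were at least 2-fold lower. INSIG1, which holds the SREBP complex in the endoplasmic reticulum and is itself an SREBP target, had 17.7, 18.2 and 19.8 FPKM in CTRL OT and 4.51, 4.30 and 4.42 in YAP1 KO OT (-1.86, SE 0.088, adjusted p = 4.57e-09). The groups of INSIG1 did not overlap. Enzymes early and late in the pathway were lower by differing amounts: HMGCS1 (-0.78), PMVK (-0.23) and IDI1 (-1.18) before squalene, and CYP51A1 (-1.29), NSDHL (-0.31), EBP (-0.52), SC5D (-0.48) and DHCR7 (-1.53) after it. The transcription factor SREBF2 fell from 33.8 ± 1.26 to 19.5 ± 0.551 FPKM (-0.76). SCAP, the escort of SREBP, was higher (0.27).

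Unlike the replication genes, the cholesterol genes were also lower in DMSO (23 lower, 0 higher of 27, median -0.76), and the levels of INSIG1 there were 19.9 ± 2.43 and 4.99 ± 0.692 FPKM. The interaction was called for 13 members, 11 of them below 0, such as ACAT2 (-0.67) and CYP51A1 (-0.51), and 2 above 0, MYLIP (0.45) and SREBF2 (0.19). For INSIG1 it was -0.05 and not called. The sterol regulatory element, searched as TCACNCCAC on both strands, was in 1 of 21 list members with a window (4.76%) and in 1.15% of all windows. That member was SREBF2, shown for this reason on GRCh38.p14 at chr22:41832855-41833104, plus strand, with the match in capitals 133 bases before the start.
SREBF2: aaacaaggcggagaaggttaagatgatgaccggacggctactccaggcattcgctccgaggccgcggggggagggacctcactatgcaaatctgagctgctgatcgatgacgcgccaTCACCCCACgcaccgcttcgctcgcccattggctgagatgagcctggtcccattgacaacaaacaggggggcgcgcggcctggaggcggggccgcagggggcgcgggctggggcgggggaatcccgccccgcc
No match in the other windows says only that these letters are not there.

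Fatty acid genes followed with 16 of 20 lower, 1 higher and 3 not called (median -0.41). SCD, the desaturase that makes oleate, had 11.2, 9.86 and 11.7 FPKM against 2.04, 1.72 and 1.88 (-2.05, SE 0.085, adjusted p = 1.37e-09), and was as far apart in DMSO (-2.07). FADS2, a desaturase of polyunsaturated fatty acids, had 28.9, 26.0 and 26.2 FPKM against 8.37, 9.06 and 8.64 (-1.53), also as in DMSO (-1.56). FADS1 (-1.13), FASN (-0.65) and SREBF1 (-0.43) were lower, ACLY was not called (-0.10), and the acyltransferase AGPAT2 was higher (0.42). In glycolysis 15 of 25 were lower and 6 higher, among them enolase, ENO1 (568 ± 11.4 to 295 ± 3.98 FPKM, -0.94) and the lactate transporter SLC16A1 (-0.85). PFKFB3, which makes the activator of phosphofructokinase, was higher (0.57), and the higher count was 3 without replicate 2 or replicate 3 of YAP1 KO OT.

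Keratins were lower in 11 of 13 tested, with a median of -0.64, and 2 of the 13 passed the filter through 1 genotype alone. KRT6A, a stress keratin of stratified epithelium, had 8.11, 8.26 and 6.51 FPKM in CTRL OT and 0.259, 0.589 and 0.547 in YAP1 KO OT (-2.56, SE 0.114), and passed the filter through CTRL alone. KRT5, of basal cells, had 25.6, 24.6 and 26.4 FPKM against 5.64, 4.52 and 5.14 (-2.13, SE 0.065). KRT13 was abundant, at 1483, 1498 and 1425 FPKM against 517, 544 and 541 (-1.46, SE 0.027). All 3 were lower in DMSO as well (-2.57, -2.46 and -1.82). The simple-epithelium keratins KRT8 (2353 ± 75.5 to 1509 ± 23.7 FPKM, -0.64) and KRT18 (-0.53) were lower, KRT7 was not called (-0.02), and KRT15 was higher (0.34). Of 26 junction genes, 8 were higher, 7 lower and 11 not called: CDH1, E-cadherin, was lower (-0.37), EPCAM was not called (0.04), and CLDN7 was higher (208.7 to 279 FPKM, 0.42). The summed epithelial markers, which include abundant keratins, were lower in YAP1 KO as given above, while of the 10 tested markers 3 were higher, 4 lower and 3 not called, with a median of 0.01. Their part in these results was not tested.

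Direct outputs of the MAPK pathway were lower in 7 of 12 tested and higher in 2, although MEK was inhibited in both groups. EPHA2, a receptor kinase induced by ERK, had 6.23, 6.30 and 6.24 FPKM in CTRL OT and 1.30, 1.29 and 1.39 in YAP1 KO OT (-1.64, SE 0.050, adjusted p = 1.13e-10). Its interaction was -1.17. FOSL1 (FRA1), an AP-1 subunit, fell from 4.83 ± 0.145 to 1.91 ± 0.165 FPKM (-1.01), from DMSO levels of 51.5 ± 2.25 in CTRL and 39.7 ± 3.07 in YAP1 KO. PHLDA1 (-0.83, admitted through CTRL alone), EMP1 (-0.75) and the phosphatase DUSP4 (-0.64) were lower, EPHA4 was higher (0.62), and DUSP6, SPRY4 and ETV5 did not pass the filter. The higher count was 1 without any single YAP1 KO OT library. Of 12 AP-1 and immediate early genes, 4 were higher and 4 lower, among them JUN (-0.47), JUNB (0.48) and FOS (0.64). EGFR, the drug target, had 18.4, 16.4 and 15.4 FPKM against 13.6, 12.7 and 14.2 (-0.29, adjusted p = 0.00222), its partner ERBB3 was higher (26.1 to 35.8 FPKM, 0.44), and the feedback inhibitor ERRFI1 was lower (-0.84).

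Mesenchymal genes gave no common direction, with 5 higher, 4 lower and 2 not called of 11 tested, and 3 higher without replicate 1 or replicate 3 of YAP1 KO OT. VIM, vimentin, had 9.18, 8.64 and 15.2 FPKM in CTRL OT and 27.5, 24.97 and 23.96 in YAP1 KO OT (1.18, SE 0.142). The transcription factor TWIST2 had 2.38, 2.54 and 1.42 FPKM against 5.59, 7.89 and 8.28 (1.41, SE 0.175). Both were spread more within groups than most genes, with the third CTRL library highest for VIM and lowest for TWIST2, and both were higher in DMSO too (1.80 and 1.46). SNAI2 (SLUG), an epithelial-mesenchymal transition factor, had 9.48, 8.62 and 9.73 FPKM against 9.98, 8.21 and 7.51. Its groups overlapped and it was not called (-0.11, adjusted p = 0.334), while in DMSO it was higher in YAP1 KO cells (4.29 ± 0.484 to 7.92 ± 0.657 FPKM, 0.76) and the interaction was -0.87 (adjusted p = 3.89e-04).

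Of 34 actin cytoskeleton and focal adhesion genes, 21 were lower and 5 higher (median -0.15), led by filamin C, FLNC (21.9 ± 2.14 to 6.94 ± 0.111 FPKM, -1.53), and transgelin, TAGLN (-0.92). ACTB was not called (-0.04) and ACTG1 was higher (0.38). Extracellular matrix genes split into 12 higher and 13 lower of 28. MFAP2, a microfibril protein, had 8.51, 8.85 and 8.83 FPKM against 44.0, 42.7 and 42.7 (2.18, SE 0.149), and COL6A2 had 8.01, 8.17 and 7.13 against 23.1, 25.4 and 23.6 (1.51, SE 0.053). Basement membrane genes were among the lower ones, such as COL4A1 (-0.95, admitted through CTRL alone) and AGRN (-0.63). Collagen genes also mark fibroblasts, whose summed markers were higher in YAP1 KO as given above (2.37 to 2.75 against 1.90 to 2.34 FPKM, with DCN and PDGFRA listed at 0), and their part in these results was not tested. Of 11 integrin subunits 5 were lower and 4 higher: ITGA6 fell from 7.53 ± 0.255 to 3.79 ± 0.200 FPKM (-0.83), with an interaction of -1.04, and ITGA5 rose (0.54). In the plasminogen and metalloprotease list 10 of 17 were higher (6 without replicate 1 of YAP1 KO OT) and 4 lower, with TIMP3, an inhibitor, falling from 20.4 ± 1.12 to 6.47 ± 0.157 FPKM (-1.52) and MMP14 rising (0.66).

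TGF-beta and BMP signalling genes were higher in 16 of 27 and lower in 5, with a median of 0.24. The list was much the same in DMSO (14 higher and 2 lower, median 0.25). In HCC4006 under OT it was not (5 higher and 9 lower of 25 tested, median 0.00361). Among ligands in PC9 under OT, TGFB1 was higher (17.7 to 27.1 FPKM, 0.59) and TGFB2 lower (-0.93), and the receptor TGFBR2 was lower (-0.45). BAMBI, a decoy receptor, had 9.64, 11.3 and 9.57 FPKM in CTRL OT and 35.8, 34.5 and 35.9 in YAP1 KO OT (1.71, SE 0.080), with an interaction of 0.90. The BMP target ID1 rose from 94.6 to 164 FPKM (0.79). Of 22 WNT genes, 10 were higher and 7 lower. The secreted inhibitor DKK1, fell from 191 ± 3.22 to 114 ± 3.62 FPKM (-0.74) and in DMSO was higher (0.45), an interaction of -1.19.

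Lysosome and autophagy genes were higher in 18 of 31 and lower in 0, with a median of 0.17, and 2 were lower under median-of-ratios scaling and 1 without replicate 3 of CTRL OT or replicate 2 of YAP1 KO OT. CTSA, a lysosomal carboxypeptidase, had 79.9, 79.7 and 79.0 FPKM against 129.6, 133 and 139.5 (0.74, SE 0.044), and ULK1, the kinase that starts autophagy, rose from 14.5 ± 0.794 to 24.5 ± 0.761 FPKM (0.72). The interaction was called above 0 for 15 members, below 0 for 0 and not called for 16. NRF2 antioxidant genes were 9 higher and 10 lower of 26, a split that depended on scaling (14 higher and 6 lower with equal sums). In DMSO 23 of the 26 were lower and 0 higher, and the interaction was called above 0 for 20. AKR1B10, an aldo-keto reductase, shows it: 314 ± 2.06 and 320.3 ± 10.6 FPKM under OT (0.03, not called) beside 425 ± 14.5 and 229.9 ± 1.93 in DMSO (-0.88). HMOX1, heme oxygenase, was slightly higher under OT (0.18) and lower in DMSO (-0.62).

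Stress response genes were 8 higher and 10 lower of 26, with DDIT4, an inhibitor of mTORC1, rising from 63.7 ± 5.82 to 123 ± 0.788 FPKM (0.94, interaction 1.05) and PSAT1, of serine synthesis, falling (-0.76). Ribosome biogenesis genes were lower in 14 of 30 and higher in 2, with differences from -0.63 (NOC2L) to 0.24, and 4 were higher when libraries were rescaled to equal sums. Interferon-stimulated genes were 11 higher and 11 lower of 34 (7 higher without replicate 2 or replicate 3 of YAP1 KO OT), with ISG15 (-0.71) and IFI6 (-0.70) lower and IFI44 (0.52) and IRF9 (0.47) higher. For class I antigen presentation 9 genes passed the filter, of which 5 were higher and 2 lower, with 3 higher under median-of-ratios scaling, and 1 lower with equal sums and without any one of the OT libraries other than replicate 1 of CTRL. The transactivator NLRC5 rose from 1.7 to 3.3 FPKM (0.69). HLA genes did not pass the filter, and some genes that every cell uses, such as TUBB and RPS18, are listed at 0 in all PC9 libraries, so a listed 0 cannot be read as absence. Of 18 chemokine and NF-kappaB genes, 3 were higher (5 with equal sums) and 5 lower: ICAM1 had 22.6, 22.8 and 21.0 FPKM against 8.34, 8.43 and 9.16 (-1.26, SE 0.046), IL18 fell from 58.5 ± 1.45 to 27.3 ± 0.719 (-1.07), and RELB rose from 3.49 ± 0.264 to 8.29 ± 0.823 (1.05). Of 10 checkpoint ligands 5 were lower, including PVR (-0.39), and 2 higher, including VTCN1 (0.22), the latter count being 1 under median-of-ratios scaling and 4 with equal sums. Of 9 lung lineage genes 5 were higher (3 without replicate 3 of CTRL OT or replicate 1 of YAP1 KO OT) and 2 lower.

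**Figure D3:**
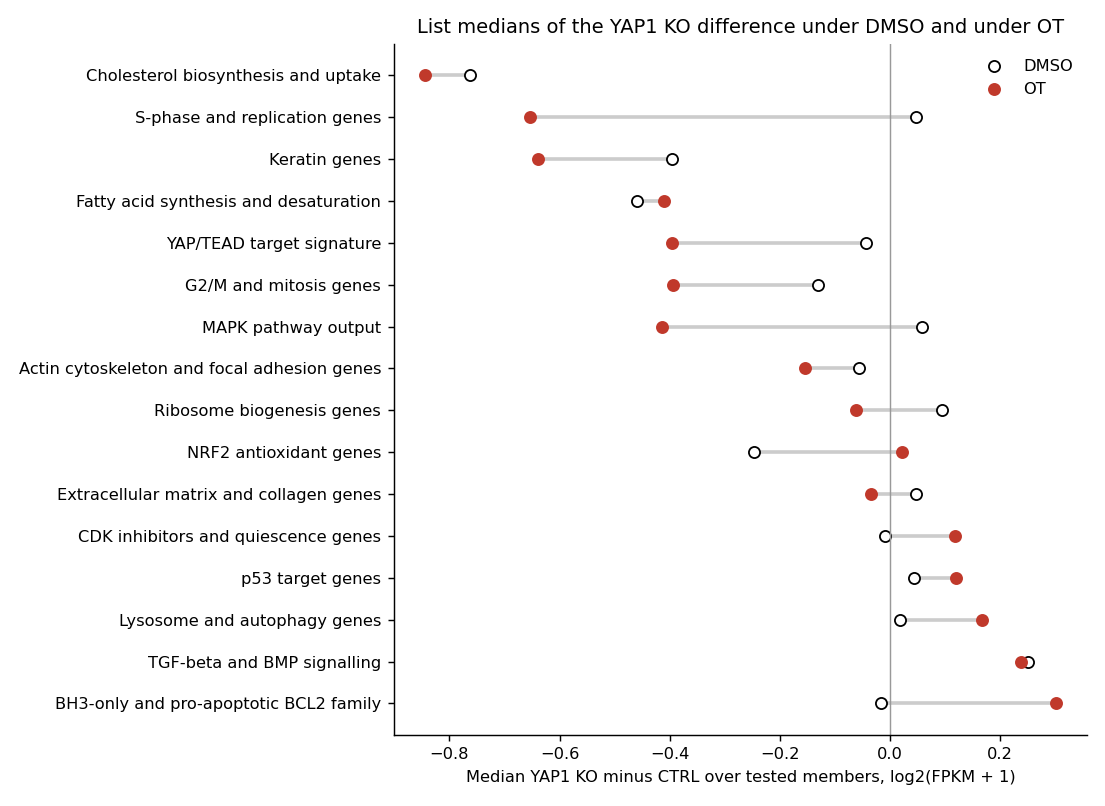
Median difference between YAP1 KO and CTRL cells over the tested members of 16 lists (rows), under DMSO (open circles) and OT (red), on the log2(FPKM + 1) scale. S-phase genes move from 0.05 to -0.65, while the cholesterol list lies at -0.76 and -0.84.

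The genes with the largest called rises under OT, among those with a mean of at least 5 FPKM in an OT group and without rows of short RNAs, came from many families. SEPP1, the plasma selenium carrier selenoprotein P, led with 11.58, 12.003 and 11.48 FPKM in CTRL OT and 61.6, 56.5 and 58.5 in YAP1 KO OT (2.24, SE 0.059, adjusted p = 4.07e-11). After MFAP2 came RRAD, a Ras-related GTPase, at 3.51, 3.19 and 2.58 FPKM against 14.7, 16.4 and 15.6 (2.02, SE 0.087). PALM, paralemmin, had 1.09, 1.31 and 1.15 FPKM against 7.40, 8.20 and 7.14 (1.97). All groups were clear of each other by more than 3-fold in these genes. BMF followed, then KAL1 (1.83), RND1 (1.83), WDR86 (1.77), DLG4 (1.71), BAMBI (1.71), DIO2 (1.69) and CACNG6 (1.62). Of all these genes, only BMF and RND1 were not called in DMSO. The others were called higher there too, from 0.36 for RRAD to 2.04 for MFAP2. KAL1, which encodes anosmin, and WDR86 passed the filter through YAP1 KO alone. DIO2, the deiodinase that activates thyroid hormone, was abundant at 30.7 ± 0.559 and 101 ± 2.69 FPKM. RND1, a small GTPase, and RRAD had interactions of 1.60 and 1.66, and CACNG6, a calcium channel subunit, one of -0.04 that was not called. RRAD stood near 0 in DMSO, at 0.0618 ± 0.0712 FPKM in CTRL and 0.365 ± 0.0817 in YAP1 KO. There log2(FPKM + 1) shrinks a fold change, so its interaction does not show a larger fold change under OT. RND1 was low there too, at 0.807 ± 0.196 and 1.12 ± 0.239 FPKM.

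Under the same limit on level, and without rows of short RNAs, the largest called falls after KRT6A were of RARRES2, KRT5, SCD, SPANXA1, SPANXA2, MOK, SFTA1P, INSIG1, ADAMTSL4, CTH and SPANXB1. All of these genes, KRT6A included, were called lower in DMSO as well, from -0.59 for SFTA1P to -2.57 for KRT6A. RARRES2, which encodes the chemoattractant chemerin, had 5.36, 6.66 and 5.66 FPKM in CTRL OT and 0.311, 0.107 and 0.179 in YAP1 KO OT (-2.52, SE 0.153), and passed the filter through CTRL alone. MOK, a MAPK-related kinase, had 37.7, 36.8 and 37.1 FPKM against 9.29, 8.60 and 9.44 (-1.92, SE 0.049). CTH, which makes cysteine from cystathionine, had 27.9, 27.1 and 28.8 FPKM against 7.81, 7.80 and 6.45 (-1.80). Their groups lay far apart, and RARRES2 stood low in both DMSO groups (1.09 ± 0.590 and 0.0376 ± 0.0652 FPKM). The SPANX genes, expressed in testis and tumours, are near-identical copies whose reads the counting could split, so SPANXA1 (-1.94), SPANXA2 (-1.94) and SPANXB1 (-1.80) are uncertain as single genes.

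In DMSO, 2400 genes (19.7%) were higher and 2513 (20.6%) lower in YAP1 KO cells, from other libraries of the same cells. The differences under OT and DMSO correlated across the 12182 genes at r = 0.558 (Spearman 0.542), a description across genes that share normalization and cell population. In both treatments 3147 genes were called in the same direction (1480 higher and 1667 lower) and 391 in opposite directions, while 3205 were called under OT alone. Of the 204 genes changed at least 2-fold under OT, 57 were changed at least 2-fold the same way in DMSO. The interaction was called above 0 for 1668 genes (13.7%) and below 0 for 1684 (13.8%), and it passed the test against a difference of 1 for 8 genes. EFEMP1, a fibulin of the extracellular matrix, had the lowest called interaction among genes with a mean of at least 5 FPKM in an OT group, -1.82 (adjusted p = 0.00261 against 1): it was lower in YAP1 KO cells under OT (22.3, 23.9 and 24.4 FPKM against 14.1, 13.8 and 11.5) and higher in DMSO (30.6 ± 1.58 to 63.4 ± 2.01). AQP3, a water and glycerol channel, went the other way, higher under OT (21.7 ± 1.25 to 39.4 ± 1.53 FPKM, 0.83) and lower in DMSO (-0.56).

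**Figure D4:**
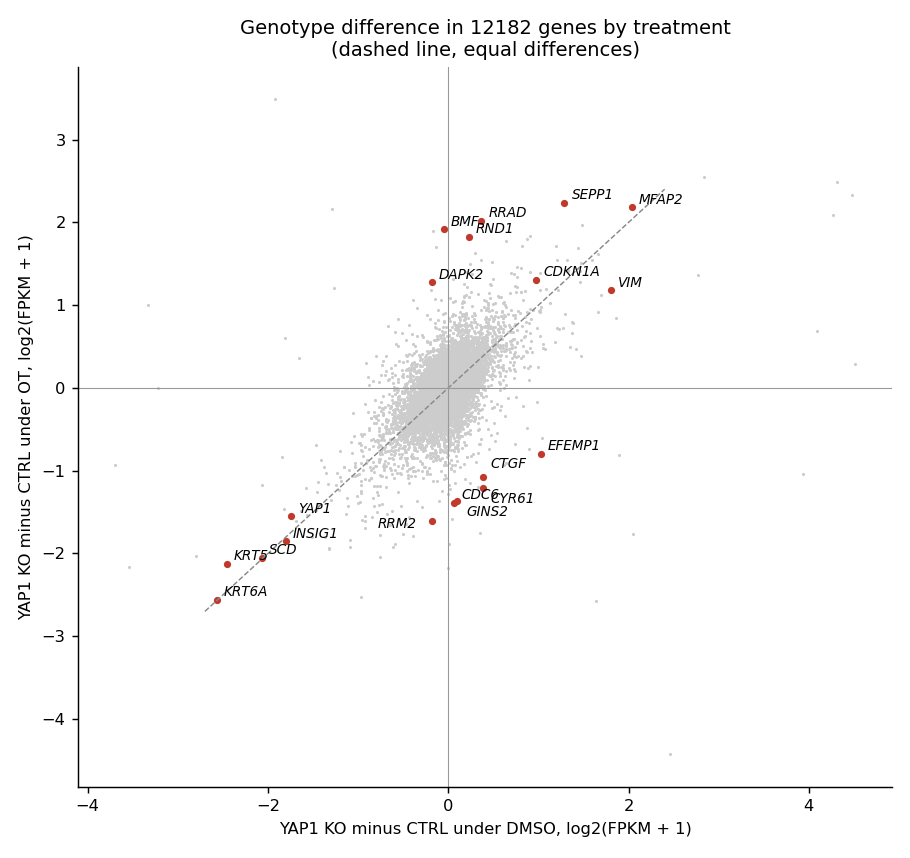
Difference between YAP1 KO and CTRL cells for 12182 genes under DMSO (horizontal axis) and under OT (vertical axis), both on the log2(FPKM + 1) scale; grey points are genes, rows of short RNAs included, and red points are named. INSIG1, SCD and KRT6A lie near the dashed line of equal differences, while BMF (1.97) and RRM2 (-1.43) lie off it by their interaction.

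HCC4006, the other EGFR-mutant line, was fitted with PC9 in 1 model of 24 libraries over 11255 genes that passed the filter in both lines. Under OT its YAP1 KO cells had 3676 genes higher (32.7%) and 2045 lower (18.2%). Of the PC9 genes at least 2-fold lower, 88 were tested there and 56 were lower and 14 higher; of those at least 2-fold higher, 66 were tested and 32 were higher and 12 lower. YAP/TEAD targets were lower in 19 of 19, with a median of -1.04, and CTGF fell further than in PC9 (-3.44 against -1.08). BMF was higher in HCC4006 as well (0.64), as were BCL2L11 (0.50) and DAPK2 (0.77), and BCL2L1 was lower (-0.70). PMAIP1 (0.15, adjusted p = 0.180) and CDKN1A (0.20, adjusted p = 0.287) were not called there, and the HCC4006 difference minus the PC9 difference was -0.74 for PMAIP1 and -1.11 for CDKN1A (adjusted p = 8.47e-05 and 2.52e-04). Replication genes differed: 12 of 30 tested were lower and 5 higher, with a median of -0.05, and RRM2 was lower (-0.60). The cholesterol list was lower in 17 of 27 (median -0.31), and INSIG1 was not called (-0.07). The difference between lines passed a test against 1 on the log2 scale for 87 genes (0.773%). RRAD, for example, was lower in HCC4006 (-1.66) and higher in PC9, and SEPP1, COL6A2 and SPARC also had opposite signs (-0.29, -0.63 and -0.94 in HCC4006).

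**Figure D5:**
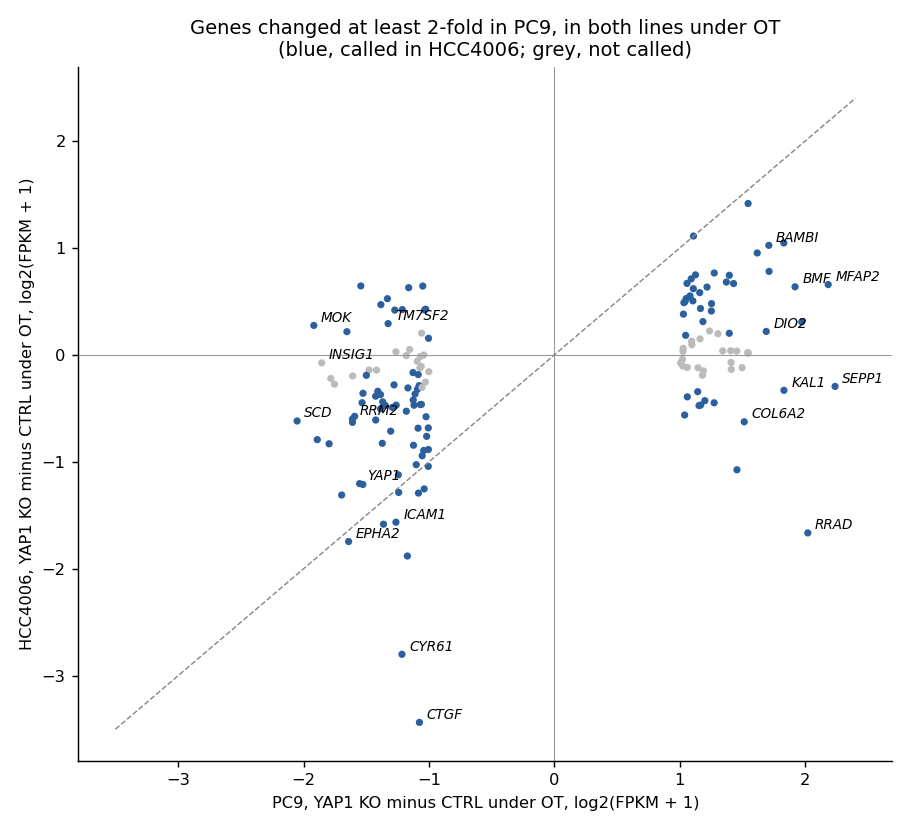
Genes changed at least 2-fold by YAP1 KO under OT in PC9 (horizontal axis) with their difference in HCC4006 under OT (vertical axis), both on the log2(FPKM + 1) scale. Blue points were called in HCC4006 and grey points were not, and the dashed line marks equal differences; CTGF and CYR61 lie below the line and RRAD and SEPP1 in the lower right.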

How the data were processed

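The labels' protocols describe TRIzol RNA and strand-specific mRNA libraries, 24 in all (8 groups of 3 dishes). FPKM were deposited by the authors in 1 table of 25365 gene rows by 24 columns, each column matched to its sample by name. STAR 2.5.1b, Cufflinks 2.2.1, DESeq2 1.10.1, hg19 and GRCh37 appear in the submitters' processing notes with no role. The gene annotation was not given in the sources used here. No count test was run, since FPKM hold no counts and the depth is not known.

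A gene was tested if 3 or more of the 6 PC9 OT libraries reached an FPKM of 1. The values, as log2(FPKM + 1) with no other scaling, were fitted by limma 3.58.1 (R 4.3.3) in 1 fit of the 12 PC9 libraries (4 group means, empirical Bayes with an intensity trend, 8 residual degrees of freedom, median residual SD 0.0686). A fold change on this scale understates that of low genes. P-values were adjusted over all genes tested, and treat tested interactions and line differences against 1. HCC4006 entered a fit of all 24 libraries. The tests were tried on simulated data. The replicate numbers did not pair the samples.

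Named genes were YAP1, the 12 highest and 12 lowest called genes with a mean FPKM of 5 or more in an OT group (no short RNAs or date-like symbols), up to 6 called members per list, the 6 largest interactions in each direction, a set of pathway genes whatever their result, and other members to complete a family. The gene lists (34, with 4 marker lists), members and rules were chosen with earlier results of these data known. Some genes taken by the rule are left out here. Promoter windows (RefSeq, GRCh38.p14) matched 665 of 866 list symbols. Alternatives were pseudocounts of 0.1 and 0.01, other filters, 2 other scalings, the OT libraries alone, the replicate block and leaving out each library.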

Additional observations from a re-analysis of the deposited data

Results flagged for a closer look

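The YAP1 KO difference under OT departed from that under DMSO by more than 1 on the log2 scale, by limma's test of the interaction against 1, for 5 named PC9 genes. BMF was above (1.97), and CDC6 (-1.45), CYR61 (-1.60), EFEMP1 (-1.82) and RRM2 (-1.43) were below. CYR61 and EFEMP1 had opposite signs in the treatments.

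Between lines under OT, the HCC4006 difference minus the PC9 difference passed the same test for 16 named genes. It was above 0 for INSIG1 (1.78), MOK (2.19) and TM7SF2 (1.62), all lower in PC9. In HCC4006 MOK (0.28) and TM7SF2 (0.29) were higher and INSIG1 was not called (-0.07). It was below 0 for the YAP/TEAD targets CTGF (-2.36) and CYR61 (-1.58), for the matrix and adhesion genes COL6A2 (-2.14), SPARC (-1.80), ITGA5 (-1.36), KAL1 (-2.16) and FHL2 (-1.27), and for DIO2 (-1.47), IL32 (-1.93), KRT4 (-1.80), PALM (-1.66), RRAD (-3.69) and SEPP1 (-2.53). KRT4 was low in PC9 under OT (1.87 ± 0.417 FPKM in CTRL and 0.659 ± 0.173 in YAP1 KO) and passed the filter there through CTRL alone. Its PC9 call was lost at a pseudocount of 0.01. One YAP1 KO population was studied per line, so line and population cannot be told apart.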

How the results depend on the processing

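Among the counts and named genes recomputed under these alternatives, none of the called values changed sign. The counts that moved by more than 1.5 times were those of genes at least 2-fold higher and lower, 81 and 123, which were 203 and 207 at a pseudocount of 0.1 and 226 and 217 at 0.01, and the higher one, which was 50 at a filter of FPKM 5. Leaving out 1 PC9 library at a time gave 2998 to 3577 genes higher, 2848 to 3140 lower, 64 to 89 at least 2-fold higher and 103 to 126 at least 2-fold lower. Of the 204 genes changed at least 2-fold, 186 were still tested without any one OT library (with 3 of the 5 remaining libraries at FPKM 1), and 185 or 186 of them stayed called. The replicate block, which pairs libraries by number, gave 3574 higher, 3147 lower, 81 at least 2-fold higher and 123 lower; the paired numbers correlated at 0.0736, -0.162 and -0.158 and, of the 3 CTRL libraries, 1 (replicate 1) correlated best with its own number. The fit of the OT libraries alone gave 3292 and 2966. Among named genes, 22 calls were lost when a library was left out, and 16 were lost and 1 gained under the other alternatives, mainly for BST2, MMP7, MUC16 and TNFSF9, which are not used above. Among list counts, 24 moved when a library was left out and 13 otherwise. Because the depth behind FPKM is unknown, no counting error can be given for low genes.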
